A study of Mus musculus with 8 samples.

Results

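Genes of cholesterol and fatty acid synthesis were followed in spleen CD4 T cells of mice, in 8 libraries made from sorted cells for RNA sequencing. The members are 36 listed genes of sterol synthesis, of the SREBP system that controls it, of sterol handling and export, and of fatty acid synthesis, out of 54837 genes in the count table. They were listed by pathway, with earlier results of these data known, and were matched by symbol. Of the 36, 34 passed the filter on low counts that left 18851 genes for testing. GFPhi (n = 3 libraries) was sorted as TIM-3+, FLAG+, GFP+ and FoxP3+ from animals in which Foxp3-eGFP-Cre-ERT2 was combined with FSF-TIM-3, so that Foxp3 drives eGFP and a Cre recombinase that tamoxifen activates. GFPlow (n = 3) was sorted as TIM-3+, FLAG+, GFP- and FoxP3- from that same genotype, although their titles also carry the word Treg. WT (n = 2) was sorted as TIM-3-, FLAG-, GFP+ and FoxP3+ from mice whose only modified allele is Foxp3-eGFP-Cre-ERT2, so the Cre allele is common to all 3 groups. All mice received tamoxifen for 5 days, and the labels used here give no ages. Both comparisons with WT differ in the transgene and in the TIM-3 and FLAG gates, whose effects cannot be told apart. Nothing in the labels says that the libraries of a group came from separate mice, so p-values measure only the spread between these samples.

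Cells make cholesterol from acetyl-CoA through mevalonate, isoprenoids, squalene and lanosterol, and they make fatty acids from cytosolic acetyl-CoA by carboxylation and chain building, followed by elongation and desaturation. When sterols are scarce, SCAP carries SREBP proteins from the endoplasmic reticulum to the Golgi, where proteases free the part that enters the nucleus and switches on both sets of genes, and INSIG proteins hold SCAP back when sterols are plentiful. Surplus sterol turns on LXR receptors and with them the exporters ABCA1 and ABCG1. In T cells these pathways are known to be induced on activation, and in regulatory T (Treg) cells lipid synthesis and the mevalonate pathway are known to bear on suppressive function.

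Promoter sequence was compared because SREBP proteins bind a short sterol regulatory element beside sites for NF-Y and Sp1. RefSeq windows of GRCm38.p6, reaching from 250 bases before to 50 bases after the annotated start, were found for 28 of the 36 genes. The stretches shown are the 150 bases before the start of Hmgcs1, the member whose window held the full 9-letter element, and of Insig1, Srebf2 and Elovl6, on which the comparisons below turn. They lie at chr13:119690201-119690350, chr5:28071262-28071411, chr15:82147119-82147268 and chr3:129532236-129532385, all on the plus strand. Capitals mark the sterol regulatory element TCACNCCAC, the NF-Y box CCAAT, the E-box CACGTG and the Sp1 box GGGCGG, each read on both strands.
Hmgcs1: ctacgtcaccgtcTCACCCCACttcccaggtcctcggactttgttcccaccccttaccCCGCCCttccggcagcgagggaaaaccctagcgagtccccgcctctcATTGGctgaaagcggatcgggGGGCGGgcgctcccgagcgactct
Insig1: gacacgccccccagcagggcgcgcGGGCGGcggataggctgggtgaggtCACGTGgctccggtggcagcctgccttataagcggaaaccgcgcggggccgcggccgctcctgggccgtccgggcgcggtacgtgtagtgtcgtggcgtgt
Srebf2: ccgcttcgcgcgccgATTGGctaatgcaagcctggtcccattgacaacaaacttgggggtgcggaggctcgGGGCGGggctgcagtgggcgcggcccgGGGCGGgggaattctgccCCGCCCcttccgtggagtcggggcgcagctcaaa
Elovl6: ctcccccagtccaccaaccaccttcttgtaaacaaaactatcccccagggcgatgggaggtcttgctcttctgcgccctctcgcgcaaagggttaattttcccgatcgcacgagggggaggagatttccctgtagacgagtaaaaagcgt

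The 9-letter element stood in the windows of 1 of 28 members (3.57%), against 1.44% of the 27025 genes with a window. The NF-Y box stood in 22 of 28 members (78.6%, against 41.1% of all genes), the Sp1 box in 23 (82.1%, against 38.2%) and the E-box in 7 (25%, against 8.09%). No member held the LXR type of site, a perfect direct repeat with 4 spacer bases, which 4 of all genes held. These shares are descriptions of letters in short windows. The 150 bases of Elovl6 held none of these motifs, while those of Srebf2 held an NF-Y box and 3 Sp1 boxes and those of Insig1 an Sp1 box and an E-box.

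Havcr2, the gene of TIM-3, was at 1525, 1077 and 1791 CPM (read counts scaled to the library total and by TMM) in GFPhi, at 260.1, 127.1 and 538.2 CPM in GFPlow, against 0.876 and 0.172 CPM in WT libraries 1 and 2. Foxp3 was at 60.2 to 81.0 CPM in GFPhi, 1.97 to 4.82 CPM in GFPlow, and 41.7 and 63.2 CPM in WT. All 5 CD4 T cell markers were present in each library. WT library 1 stood apart, with reads in 18599 genes (21248 to 22185 in the other 7 libraries), 15.2% ribosomal protein reads (6.12% to 6.97%), 6.54% mitochondrial reads (2.35% to 2.78%) and a TMM factor of 0.694 (1.041 to 1.07). WT library 2 held both Xist (242 CPM) and the Y-linked Ddx3y (6.16 CPM), while GFPhi library 3 and GFPlow library 3 held Xist (237 and 184 CPM) and no Ddx3y, and the other 5 libraries held Ddx3y at 170 CPM or more and Xist at 0.263 CPM or less. The results that turn on a WT library are therefore also given with WT libraries left out, and a lone WT library is then assumed to vary like the other groups. Total counts ran from 44446215 to 55388756 per library.

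The sterol and fatty acid genes were expressed in all 3 groups, over a wide range of levels per length (RPKM, TMM-scaled CPM per kilobase of merged exons). In GFPhi the highest means were those of Elovl5, an elongase of polyunsaturated fatty acids (73.4 RPKM, mean of 3 libraries), of Ebp, a sterol isomerase late in cholesterol synthesis (47.4 RPKM), of Acly, which makes cytosolic acetyl-CoA from citrate (29.9 RPKM), and of Sc5d, the sterol C5-desaturase (29.8 RPKM). The lowest means among the genes tested were those of Acaca, the acetyl-CoA carboxylase of fatty acid synthesis (0.766 RPKM), and of the cholesterol exporter gene Abca1 (1.03 RPKM). Of the 10 members with the highest level in GFPhi, 9 were also among the top 10 when levels were taken per longest coding transcript.

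Paralogs differed in level. Scd2, a stearoyl-CoA desaturase gene, averaged 11.9 RPKM in GFPhi, 10.2 RPKM in GFPlow, and 20.3 and 11.9 RPKM in WT libraries 1 and 2. Its paralog Scd1, the main form of liver, had 10 reads in GFPhi library 1 and none in the other 7 libraries, where 3 reads would have been 0.0517 to 0.0973 CPM. Fads1, the delta-5 desaturase gene, averaged 1.73 RPKM in GFPhi, 2.17 RPKM in GFPlow, and 2.02 and 1.35 RPKM in WT. Fads2, the delta-6 desaturase gene, had 19 reads in GFPlow library 3 and none elsewhere. Scd1 and Fads2 failed the filter on low counts and were not tested, and limits from a count of 0 cover counting error only.

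Of the genes for the sterol sensors, Insig2 averaged 14.0 RPKM in GFPhi, 15.2 RPKM in GFPlow, and 13.4 and 14.5 RPKM in WT libraries 1 and 2. Insig1, itself a target of SREBP, averaged 7.61 RPKM in GFPhi, 7.45 RPKM in GFPlow, and 1.899 and 4.45 RPKM in WT. Insig1 thus lay below Insig2 in every group, and by a wider ratio in both WT libraries. Srebf2, which encodes the SREBP of cholesterol synthesis, averaged 11.2 RPKM in GFPhi, 13.7 RPKM in GFPlow, and 3.45 and 9.04 RPKM in WT. Srebf1, which encodes the SREBP forms tied more to fatty acid synthesis, averaged 7.80 RPKM in GFPhi, 8.58 RPKM in GFPlow, and 3.54 and 7.90 RPKM in WT. Srebf2 stood above Srebf1 in all groups except in WT library 1, where both were nearly equal. The exporter gene Abcg1 averaged 13.8 RPKM in GFPhi, 13.3 RPKM in GFPlow, and 4.62 and 12.4 RPKM in WT.

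**Figure D1:**
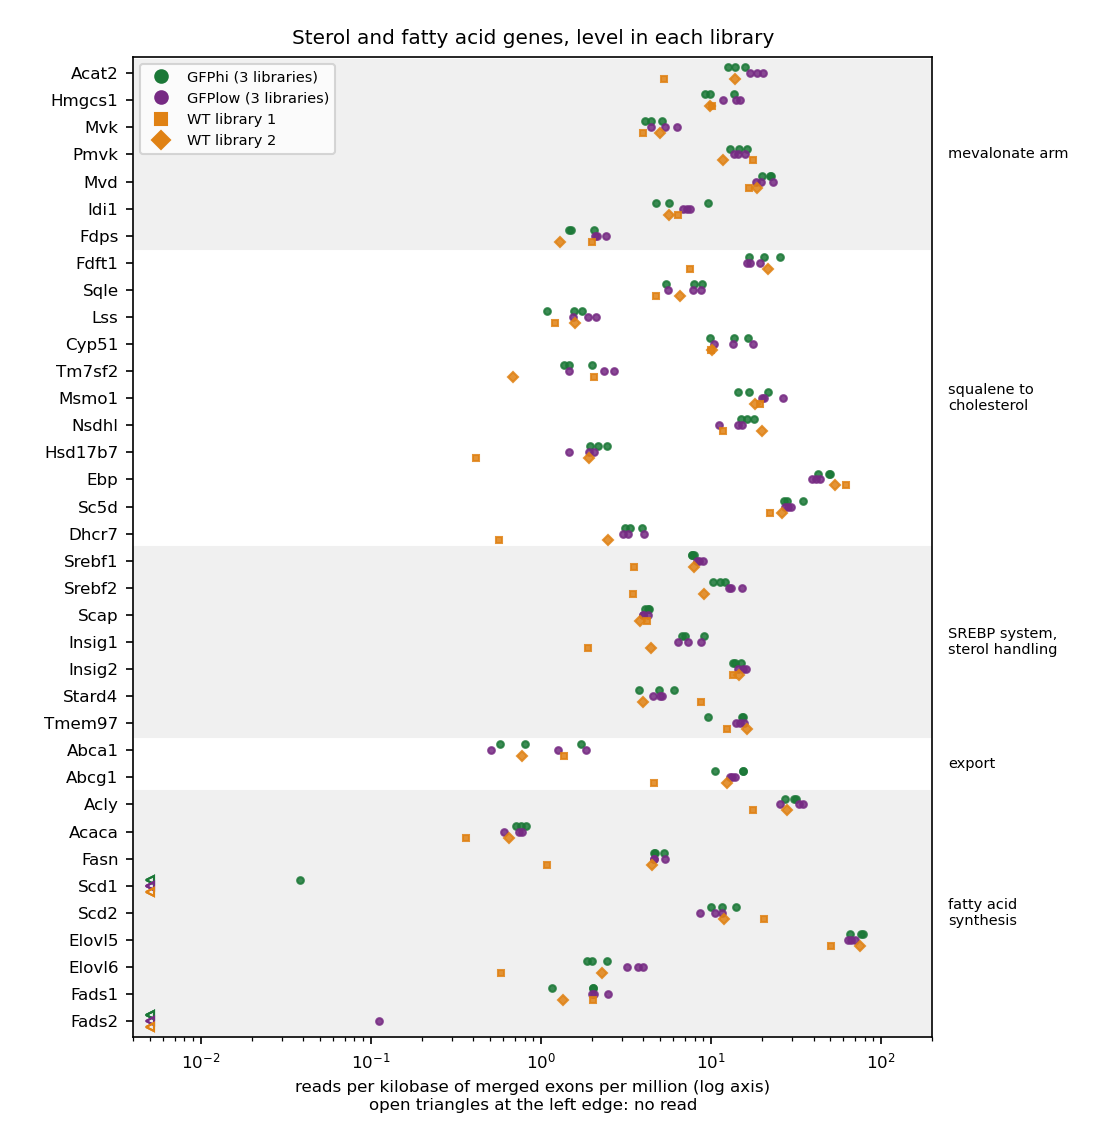
Level of each of the 36 genes in each library, in RPKM on a log axis, grouped by role. Points are single libraries of GFPhi, GFPlow and WT, and open triangles at the left edge mark libraries with no read. Elovl5 lies at the top of the range, Scd1 and Fads2 have reads in 1 library each, and WT library 1 lies left of the other libraries for genes such as Dhcr7, Fasn and Elovl6.

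The comparison of GFPhi with GFPlow sets FoxP3+ beside FoxP3- cells that both carry the transgene. They differed in Havcr2 level too, at 1077 to 1791 CPM in GFPhi against 127.1 to 538.2 CPM in GFPlow. The part of the TIM-3 level in the differences below was not tested. By edgeR's quasi-likelihood test, adjusted by Benjamini-Hochberg over all genes, 0 of the 34 tested members passed and 2.26% of all genes did (1.63% higher and 0.626% lower), and 0 members had an unadjusted p under 0.05 (11.6% of all genes). The median log2 fold change of the members was -0.03, beside 0.01 over all genes tested. GFPhi libraries lay wholly below GFPlow libraries for 5 members (Acat2, Fdps, Srebf1, Srebf2 and Elovl6) and wholly above for 0, and this share of 14.71% stood beside 30% of all genes (14% below and 16% above). The 95% interval of the fold change stayed within 2-fold in either direction for 24 of the 34, which 32.7% of all genes did. Changes of 2-fold or more thus lay outside the interval for most members, while the other 10 could not be bounded that closely. In bulk libraries fewer cells of a type and less RNA per cell cannot be told apart.

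Elovl6 (ENSMUSG00000041220, GRCm38 chromosome 3, 129532355 to 129638495, plus strand), which lengthens palmitate to stearate, had the smallest p. It was at 12.8, 11.95 and 15.7 CPM in GFPhi libraries 1 to 3, at 25.5, 23.8 and 20.5 CPM in GFPlow libraries 1 to 3, against 3.76 and 14.8 CPM in WT libraries 1 and 2. All 3 GFPhi libraries lay below all 3 GFPlow libraries, and WT library 2 lay within the GFPhi range. The log2 fold change of GFPhi against GFPlow was -0.79 ± 0.43 (SE, adjusted p = 0.605, edgeR). With WT library 1 left out the change was -0.79 ± 0.16 and Elovl6 passed (adjusted p = 0.0184, edgeR, a fit in which 9.66% of all genes did). With WT library 2 left out it was -0.78 ± 0.16 and passed too (adjusted p = 0.0192, 9.64% of all genes). It also passed with only GFPhi and GFPlow in the fit (adjusted p = 0.0148, 12.3% of all genes) and by limma voom with sample quality weights (adjusted p = 0.00952, 12.1% of all genes). DESeq2 on all 8 libraries called no member and 7.29% of all genes. Over 19 alternative fits it passed in 6 (among them 1 with a replicate block and only these 2 groups, where 10.3% of all genes passed), its change ran from -0.91 to -0.71, and its adjusted p ran from 0.000127 to 0.982. The size of the difference thus hardly moved between fits, while its standard error was smaller once either WT library was left out of the shared estimate of spread.

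Among the genes from acetyl-CoA to farnesyl pyrophosphate, 0 of 7 passed in GFPhi against GFPlow, 5 lay below 0, and their median was -0.23. Hmgcs1, the HMG-CoA synthase (ENSMUSG00000093930, chromosome 13, 119690379 to 119708260, plus strand), was at 45.3, 62.4 and 42.1 CPM in GFPhi, against 54.1, 67.9 and 64.0 CPM in GFPlow (-0.31 ± 0.20, adjusted p = 0.705, edgeR). Fdps, the farnesyl pyrophosphate synthase (ENSMUSG00000059743, chromosome 3, 89093588 to 89101959, minus strand), was at 6.30, 8.66 and 6.15 CPM in GFPhi, against 10.1, 8.74 and 8.95 CPM in GFPlow (-0.40 ± 0.28, adjusted p = 0.772). The groups overlapped for Hmgcs1 and did not for Fdps, by a narrow margin. Acat2, the cytosolic thiolase that starts the pathway, had a change of -0.40 ± 0.32. Mvk and Pmvk, the kinases of mevalonate and phosphomevalonate, Mvd, the decarboxylase that follows them, and Idi1, the isomerase of isopentenyl pyrophosphate, had changes of -0.23, 0.00, 0.08 and -0.12.

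From squalene to cholesterol 0 of 11 genes passed, 7 lay above 0 and 4 below, and their median was 0.01. Msmo1, the sterol C4-methyl oxidase (ENSMUSG00000031604, chromosome 8, 64718139 to 64733792, minus strand), was at 88.9, 132.8 and 103.2 CPM in GFPhi, against 122.0, 163.6 and 126.1 CPM in GFPlow (-0.34 ± 0.20, adjusted p = 0.668, edgeR). GFPhi library 2 lay above GFPlow libraries 1 and 3, so the groups overlapped. The largest positive changes were those of Nsdhl, the sterol C4 dehydrogenase (0.28 ± 0.23), and Hsd17b7, the 3-keto reductase that acts with it (0.27 ± 0.48). The largest negative change was that of Tm7sf2, a sterol C14 reductase (-0.44 ± 0.44). Fdft1, the squalene synthase, Sqle, the squalene epoxidase, Lss, the lanosterol synthase, and Cyp51, the lanosterol demethylase, had changes of 0.25, 0.01, -0.33 and -0.06. Ebp, Sc5d and Dhcr7, the reductase that makes cholesterol from 7-dehydrocholesterol, had changes of 0.20, 0.07 and 0.01.

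Among the 7 genes of the SREBP system and sterol handling, 0 passed and the median was -0.12. Srebf2 had a change of -0.29 ± 0.31 and Srebf1 of -0.14 ± 0.27, and for both the GFPhi libraries lay below the GFPlow libraries. Srebf1 varied little within groups, at 44.9, 43.8 and 43.2 CPM in GFPhi, against 46.8, 50.4 and 47.7 CPM in GFPlow. Scap, the escort of SREBP, also varied little, at 31.6, 30.3 and 32.0 CPM in GFPhi, against 29.5, 31.8 and 29.7 CPM in GFPlow, with a change of 0.04 ± 0.16. Insig1 (0.03 ± 0.32), Insig2 (-0.12 ± 0.15), Stard4, a sterol transfer protein (0.00 ± 0.31), and Tmem97, a sterol-binding protein of the endoplasmic reticulum (-0.14 ± 0.24), were also near 0.

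Of the 7 fatty acid genes tested 0 passed, with 3 above 0 and 4 below. Fasn, the fatty acid synthase, was at 50.4, 51.5 and 57.8 CPM in GFPhi, against 58.6, 50.6 and 50.8 CPM in GFPlow, with overlapping libraries. Acly (-0.05 ± 0.22), Acaca (0.12 ± 0.27), Scd2 (0.22 ± 0.24), Elovl5 (0.14 ± 0.19) and Fads1 (-0.33 ± 0.31) had overlapping libraries. Elovl6 was thus the only one of these 7 genes whose GFPhi and GFPlow libraries did not overlap (14.29%, beside 30% of all genes).

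**Figure D2:**
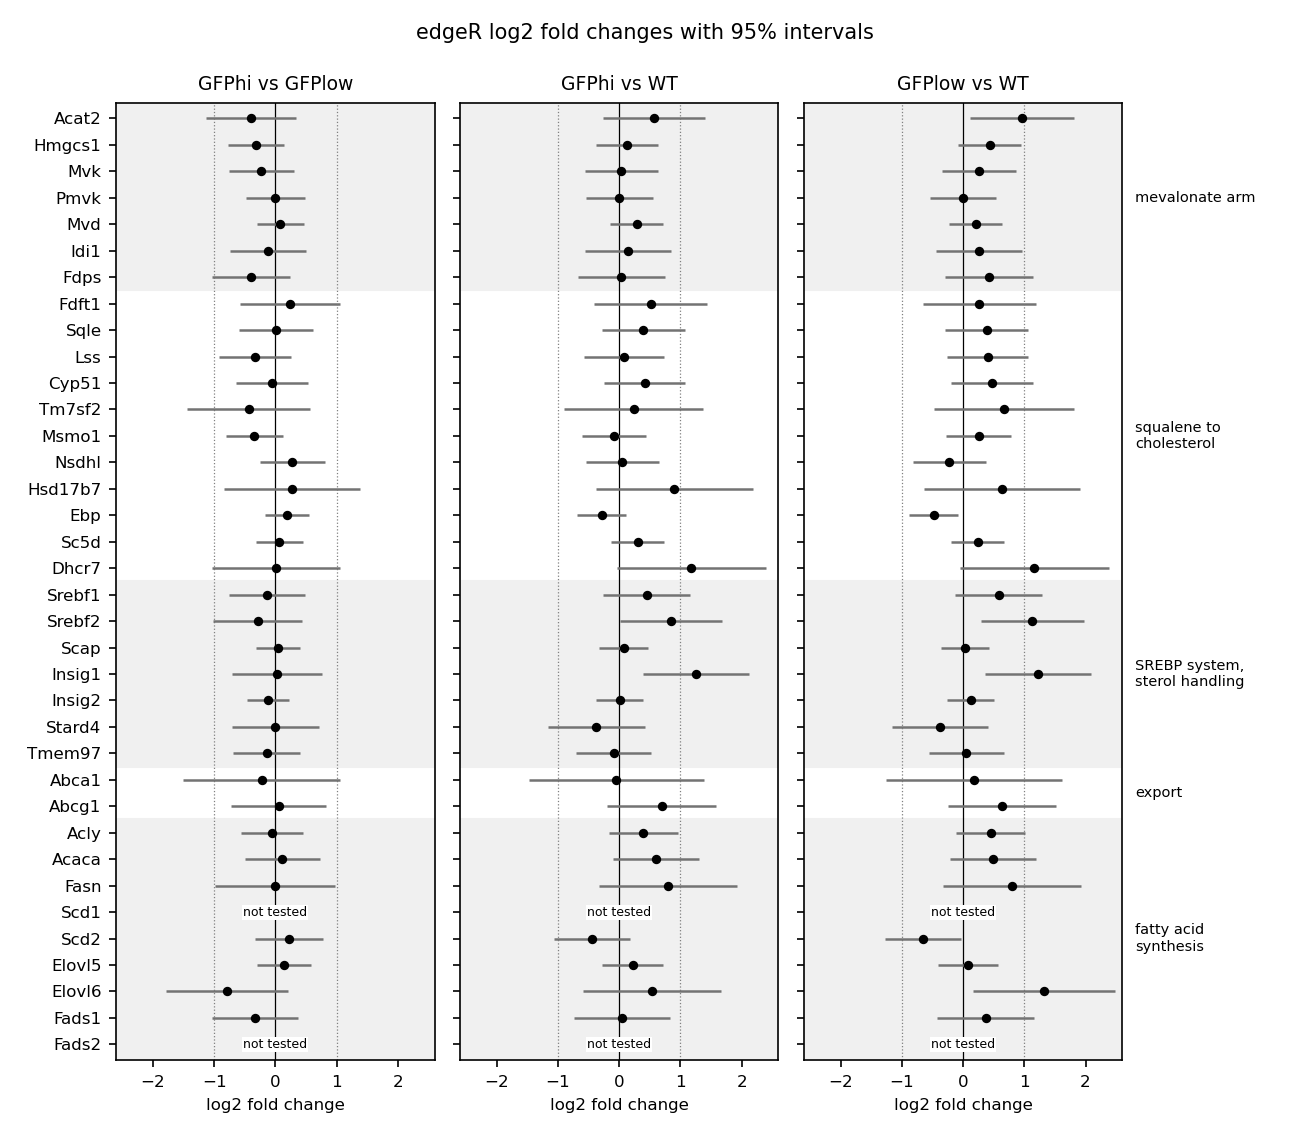
Log2 fold changes from edgeR (points) with 95% intervals (bars) for each member in the 3 comparisons, as the group named first over the one named second. Dotted lines mark 2-fold in either direction. In GFPhi against GFPlow the points crowd around 0 with Elovl6 farthest left, and in both comparisons with WT the points of Insig1, Srebf2 and Dhcr7 lie to the right, with wide intervals.

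GFPhi against WT sets FoxP3+ cells with and without the transgene side by side, the question in the series title. None of the 34 members passed in edgeR, as 0% of all genes did. At an unadjusted p under 0.05 were 2 members (Insig1 and Srebf2), or 5.88%, and 13.7% of all genes (2588). DESeq2 called 61 genes in all and limma voom 0, none of them members. The members' median log2 fold change was 0.23, beside 0.08 over all genes, and 28 of 34 lay above 0 (53.42% of all genes). That count depended on scaling, filter and library: 18 lay above 0 under upper-quartile scaling (median 0.0633, beside -0.05 over all genes), 20 with a filter of 5 CPM in 2 libraries, 22 without WT library 1 (median 0.15) and 25 without WT library 2 (median 0.42, beside 0.38 over all genes). GFPhi libraries lay wholly above WT for 8 members (Mvd, Hsd17b7, Sc5d, Dhcr7, Srebf2, Insig1, Acaca and Fasn) and wholly below for Ebp, 26.47% in all beside 28.1% of all genes (15.6% above and 12.6% below). The 95% interval stayed within 2-fold for 17 of 34 members.

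Insig1 (ENSMUSG00000045294, chromosome 5, 28071363 to 28078662, plus strand) was at 21.7, 28.2 and 20.8 CPM in GFPhi, against 5.87 and 13.8 CPM in WT libraries 1 and 2 (1.26 ± 0.38, adjusted p = 0.348, edgeR). Srebf2 (ENSMUSG00000022463, chromosome 15, 82147181 to 82205379, plus strand) was at 81.4, 86.4 and 73.5 CPM in GFPhi, against 24.8 and 65.0 CPM in WT (0.84 ± 0.36, adjusted p = 0.363). For both, every GFPhi library lay above both WT libraries, and WT library 1 lay far below WT library 2. Dhcr7 (ENSMUSG00000058454, chromosome 7, 143823145 to 143848410, plus strand) was at 22.8, 19.5 and 18.2 CPM in GFPhi, against 3.31 and 14.5 CPM in WT (1.17 ± 0.53, adjusted p = 0.369). Acaca (ENSMUSG00000020532, chromosome 11, 84129672 to 84401651, plus strand) was at 13.05, 12.2 and 14.0 CPM in GFPhi, against 6.17 and 11.0 CPM in WT (0.60 ± 0.31, adjusted p = 0.388). These 4 differences shrank with WT library 1 left out, to 0.77 ± 0.25 for Insig1, 0.31 ± 0.14 for Srebf2, 0.48 ± 0.23 for Dhcr7 and 0.25 for Acaca. Against WT library 1 alone they were 2.03, 1.72, 2.63 and 1.11, all past the threshold, as were 17 members in all (14 higher, 3 lower) and 40.1% of all genes.

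By role, the medians in GFPhi against WT were 0.12 from acetyl-CoA to farnesyl pyrophosphate, 0.30 from squalene to cholesterol, 0.08 for the SREBP system and sterol handling, and 0.40 for fatty acid synthesis. Without WT library 1 they were 0.21, 0.18, 0.14 and 0.11 in that order of roles, and without WT library 2 they were 0.13, 0.46, 0.14 and 0.79 (all genes 0.02 and 0.38). All 7 genes of the first of these roles lay above 0, from 0.00 for Pmvk to 0.56 for Acat2, with 0 called, and 6 and 5 of them did so without WT library 1 and without WT library 2. Ebp was at 97.9, 114.7 and 115.8 CPM in GFPhi, against 143.3 and 123.0 CPM in WT (-0.28 ± 0.17), below both WT libraries in each GFPhi library. Fasn was at 11.9 CPM in WT library 1 and at 49.3 CPM in WT library 2, so its value of 0.80 ± 0.49 rested on WT library 1.

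GFPlow against WT compares cells that differ in FoxP3 status as well as in the transgene. None of the 34 members passed in edgeR, where 3.3% of all genes did (1.08% higher and 2.23% lower), and 6 members (17.6%) beside 25% of all genes had an unadjusted p under 0.05. The median of the members was 0.38, beside 0.02 over all genes, and 30 of 34 lay above 0 (50.71% of all genes). It was 24 of 34 under upper-quartile scaling, 26 with the filter of 5 CPM, 27 without WT library 1 and 28 without WT library 2. GFPlow libraries lay wholly above WT for 14 members and wholly below for 2 (Ebp and Scd2), 47.06% in all beside 40.3% of all genes (21.1% above and 19.2% below). This comparison and the preceding one share both WT libraries, so their values are not independent.

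Insig1 was at 22.7, 26.8 and 19.6 CPM in GFPlow, against 5.87 and 13.8 CPM in WT libraries 1 and 2 (1.23 ± 0.38, adjusted p = 0.115, edgeR). Srebf2 was at 91.7, 108.8 and 94.5 CPM in GFPlow, against 24.8 and 65.0 CPM in WT (1.13 ± 0.37, adjusted p = 0.123). Acat2 (ENSMUSG00000023832, chromosome 17, 12942890 to 12960747, minus strand) was at 51.7, 47.3 and 43.0 CPM in GFPlow, against 13.5 and 35.0 CPM in WT (0.96 ± 0.37, adjusted p = 0.161). All 3 lay above both WT libraries in every GFPlow library. Ebp (ENSMUSG00000031168, chromosome X, 8185329 to 8193512, minus strand) was at 90.6, 95.2 and 100.5 CPM in GFPlow, against 143.3 and 123.0 CPM in WT (-0.48 ± 0.17, adjusted p = 0.144), below WT in every library. Elovl6 had the largest change of all members, 1.32 ± 0.50 (adjusted p = 0.161).

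With WT library 1 left out, Srebf2 passed as higher in GFPlow (0.60 ± 0.14, adjusted p = 0.0469, edgeR) and was the only member to do so, beside 5.88% of all genes. Over 19 alternative fits its adjusted p ran from 2.3e-05 to 0.588, and it passed in 4. In the same fit Insig1 was at 0.75 ± 0.25 (adjusted p = 0.153), Acat2 at 0.44 ± 0.17 (adjusted p = 0.214) and Ebp at -0.36 ± 0.12 (adjusted p = 0.143). Against WT library 1 alone the same 4 genes had changes of 2.01 (Srebf2), 1.995 (Insig1), 1.83 (Acat2) and -0.56 (Ebp), and 16 members passed, 13 higher and 3 lower, as did 43.9% of all genes. DESeq2 on all 8 libraries called 3 members, Insig1 (1.22, adjusted p = 0.017) and Srebf2 (1.12, adjusted p = 0.0258) as higher and Ebp (-0.50, adjusted p = 0.0317) as lower, and 17.1% of all genes. Under upper-quartile scaling the median of all genes moved to -0.12 and that of the members to 0.22.

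WT library 1 lay below all 7 other libraries for 17 of the 34 members (50%, beside 35.92% of all genes) and above them for 4, Pmvk, Ebp, Stard4 and Scd2 (11.76%, beside 31.34%). Its level was 0.217 times that of WT library 2 for Hsd17b7, 0.229 times for Dhcr7, 0.242 times for Fasn and 0.255 times for Elovl6. For Scap, Hmgcs1, Cyp51 and Msmo1 the ratio was 1.097, 1.03, 0.99 and 1.06. Genes of the same pathway therefore did not move together in that library. Its 5 platelet markers summed to 40.8 CPM, beside 0.188 to 5.30 CPM in the other libraries. Ppbp (26.7 CPM) and Pf4 (13.1 CPM) made up most of this sum, while Itga2b and Gp9 were lower than in WT library 2. Its 8 dividing-cell markers summed to 1214 CPM, beside 340.2 to 931.9 CPM. Of these, Cdk1, Birc5, Pcna and Tyms were highest in WT library 1. Mki67, Top2a and Ccnb1 were lower there than in GFPhi library 1, and Mcm5 was the lowest of all libraries. The part of these markers, and of its ribosomal and mitochondrial reads, in the values of the members was not tested.

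**Figure D3:**
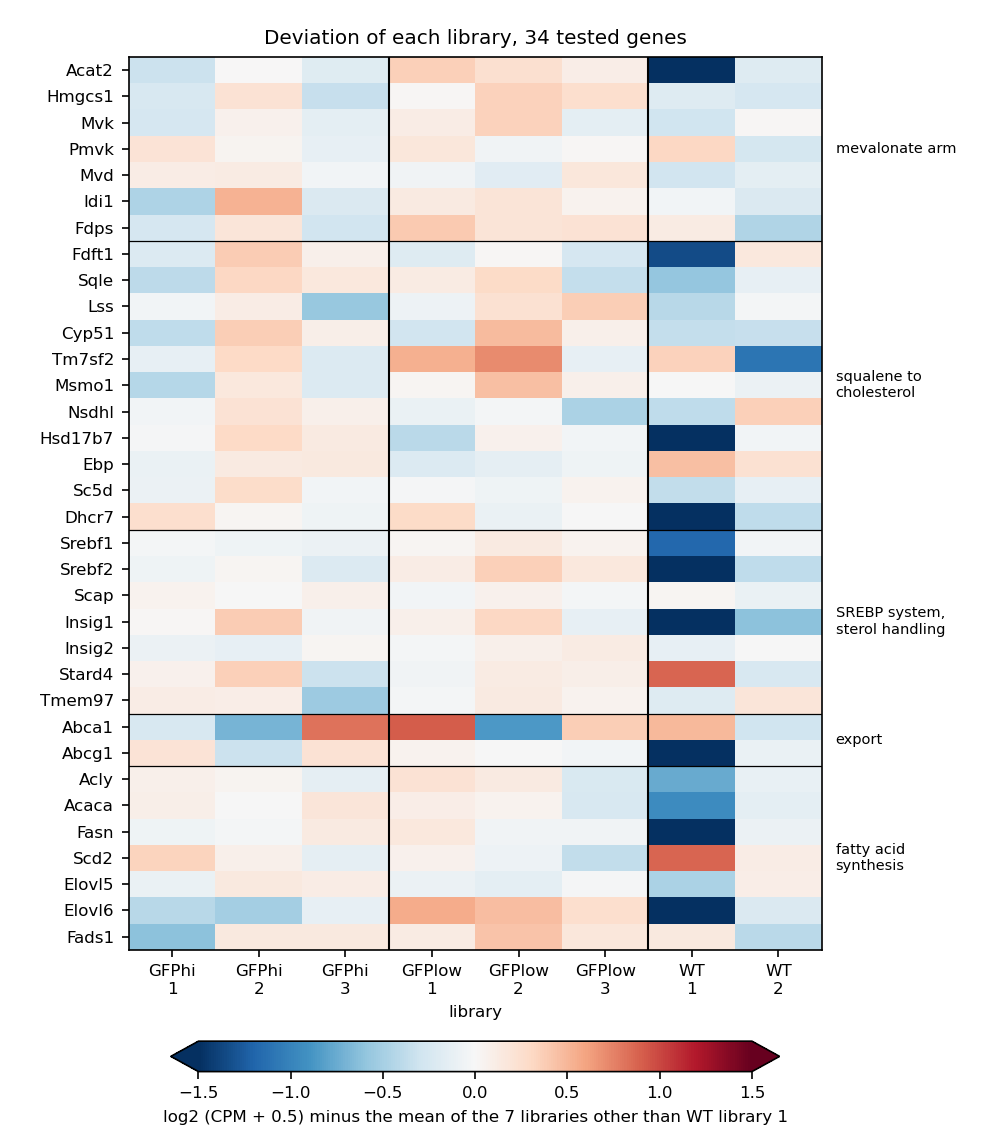
Deviation of each library, as log2 (CPM + 0.5) minus the mean of the 7 libraries other than WT library 1, for the 34 tested members (rows, by role) in the libraries of GFPhi, GFPlow and WT (columns). WT library 1 holds the darkest cells in both directions, GFPhi library 2 is above the other GFPhi libraries for most sterol synthesis enzymes, and Elovl6 is below the mean in GFPhi and above it in GFPlow.

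Within groups the sterol synthesis enzymes varied more than most genes. Among genes above 5 CPM, the median coefficient of variation of the 18 enzymes was 17.1% over the GFPhi libraries, beside 9.51% for all genes, and 13.6% over the GFPlow libraries, beside 9.27%. GFPhi library 2 was the highest of the 3 GFPhi libraries for 15 of the 18 enzymes (83.33%, beside 31.09% of all genes) and the lowest for 0, a pattern picked out after the values were seen. GFPlow library 2 was the highest of the 3 GFPlow libraries for 10 (55.56%, beside 33.67%) and the lowest for 5 (27.78%, beside 31.38%). Idi1 stood out, at 16.6, 33.5 and 19.8 CPM in GFPhi, against 25.4, 26.5 and 24.0 CPM in GFPlow. Cyp51 was at 43.4, 73.2 and 60.0 CPM in GFPhi, against 46.0, 78.3 and 59.6 CPM in GFPlow, with library 2 highest in both groups.

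The summed level of the 18 enzymes was 740.7, 981.3 and 813 CPM in GFPhi libraries 1 to 3, 829.5, 929.4 and 838.3 CPM in GFPlow libraries 1 to 3, and 695.1 and 808.4 CPM in WT libraries 1 and 2. GFPhi and GFPlow overlapped in this sum, and GFPhi held both its lowest and its highest value among the 6 transgenic libraries. The 8 markers of dividing cells summed to 931.9, 609.4 and 432.0 CPM in GFPhi, 340.2, 368.8 and 541.5 CPM in GFPlow, and 1214 and 530.3 CPM in WT. They did not rank the GFPhi libraries as the enzymes did, since GFPhi library 1 was highest for these markers and lowest for the enzyme sum. No dividing-cell marker passed in any of the 3 comparisons.

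Of both exporters, Abca1 was the most variable member, at 8.31, 5.93 and 17.8 CPM in GFPhi, at 19.0, 5.24 and 13 CPM in GFPlow, against 14.1 and 8 CPM in WT libraries 1 and 2. Its coefficient of variation was 58.8% over GFPhi and 55.7% over GFPlow libraries, so no comparison bounded it within 2-fold (GFPhi against GFPlow -0.22 ± 0.56). The 6 myeloid markers summed to 5.4, 4.12 and 44.5 CPM in GFPhi, to 23.1, 3.07 and 250.3 CPM in GFPlow, against 14.5 and 34.4 CPM in WT. The lowest values of Abca1 and of these markers were both in GFPlow library 2, and within each transgenic group Abca1 was lower in library 2 than in the libraries with more myeloid transcripts. GFPlow library 3 held the most Lyz2 (197 CPM) without the highest Abca1. In WT the order was reversed for the marker sum, with more Abca1 in library 1 and a larger sum in library 2. That difference in the sum came mainly from Lyz2, at 6.85 CPM in WT library 1 and 27.05 CPM in WT library 2. Cd68 and Csf1r, a macrophage receptor, were also higher in WT library 2, while Adgre1, Itgam and Fcer1g were higher in WT library 1. Csf1r was at 0 in GFPhi library 2, GFPlow library 2 and WT library 1. The part of other cells in the values of Abca1 was not tested.

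Abcg1, the exporter that passes cholesterol to high-density lipoprotein, was at 111.7, 77.3 and 113.1 CPM in GFPhi, at 100.2, 96.7 and 93.9 CPM in GFPlow, against 33.7 and 90.8 CPM in WT. It had a change of 0.06 ± 0.34 in GFPhi against GFPlow, and of 0.69 ± 0.39 and 0.64 ± 0.38 in GFPhi and GFPlow against WT, where WT library 1 was low.

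**Figure D4:**
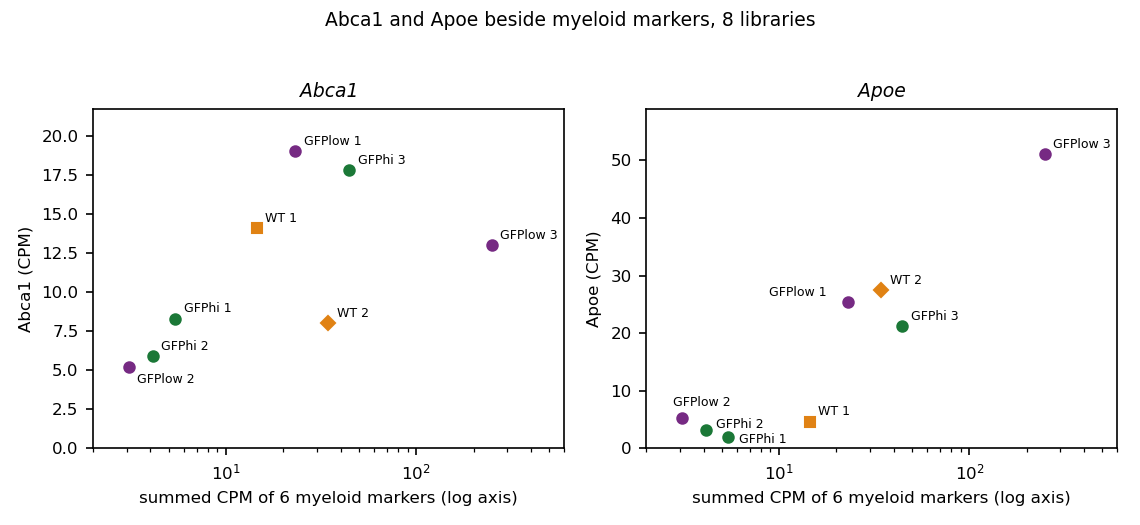
Abca1 (left) and Apoe (right) in CPM against the summed CPM of 6 myeloid markers on a log axis, 1 labelled point per library. GFPhi libraries 1 and 2 and GFPlow library 2 lie low on both axes in both panels, and GFPlow library 3 has the most myeloid transcripts, at 250.3 CPM.

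Of 59 other listed genes of sterol and lipid pathways, 50 were tested, 8 failed the filter on low counts and 1 symbol was not matched. In GFPhi against GFPlow 1 passed as higher and 0 as lower, beside 1.63% and 0.626% of all genes. In GFPhi against WT 0 passed, as 0% of all genes did. In GFPlow against WT 1 passed as higher and 1 as lower, beside 1.08% and 2.23% of all genes. The median changes of the 50 were -0.09, 0.29 and 0.43 in these 3 comparisons, beside 0.01, 0.08 and 0.02 over all genes. Dgat2, which joins the last fatty acid to form triglyceride (ENSMUSG00000030747, chromosome 7, 99153658 to 99182719, minus strand), was at 5.18, 4.89 and 8.62 CPM in GFPhi, at 0.56, 0.65 and 0.756 CPM in GFPlow, against 6.23 and 9.79 CPM in WT. It rose in GFPhi against GFPlow by 3.24 ± 0.39 (adjusted p = 0.00617, edgeR) and fell by 3.61 ± 0.42 in GFPlow against WT (adjusted p = 0.0047). Both FoxP3+ groups thus had reads for Dgat2 at several times the GFPlow level, and the groups did not overlap. The first call held in all 19 alternative fits and the second in 16.

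Lbr, the lamin B receptor, which is also a sterol C14 reductase (ENSMUSG00000004880, chromosome 1, 181815335 to 181843046, minus strand), was at 192.9, 182.7 and 189.9 CPM in GFPhi, at 265.3, 265.2 and 271.1 CPM in GFPlow, against 130.9 and 164.0 CPM in WT. It rose in GFPlow against WT by 0.86 ± 0.18 (adjusted p = 0.0429, edgeR), a call that was lost in 12 of 19 alternative fits, with its adjusted p reaching 0.718. Its GFPhi libraries lay below every GFPlow library and above both WT libraries (-0.50 ± 0.16, adjusted p = 0.197, and 0.35 ± 0.18, adjusted p = 0.386).

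Acss2, Elovl7, Npc2, Acot7, Fdx1 and Apoe did not pass and are given because their values, once seen, stood apart. Acss2, which makes acetyl-CoA from acetate, was at 33.0, 33.6 and 44.3 CPM in GFPhi, at 89.8, 82.4 and 76.8 CPM in GFPlow, against 12.6 and 38.6 CPM in WT (GFPhi against GFPlow -1.16 ± 0.37, adjusted p = 0.203, edgeR). Elovl7, an elongase of long saturated chains, was at 0.356, 0.903 and 0.371 CPM in GFPhi, at 7.94, 8.05 and 8.48 CPM in GFPlow, against 2.21 and 0.121 CPM in WT (-3.90 ± 0.92, adjusted p = 0.087). Npc2, which moves cholesterol out of lysosomes, was at 246.4, 299.3 and 317.1 CPM in GFPhi, at 478.7, 491.1 and 498.0 CPM in GFPlow, against 371.7 and 293.6 CPM in WT (-0.77 ± 0.18, adjusted p = 0.0853). For Acss2, Elovl7 and Npc2 every GFPhi library lay below every GFPlow library, as for Elovl6. With only GFPhi and GFPlow in the fit they passed as lower in GFPhi, where 12.3% of all genes passed in either direction. Over 19 alternative fits the adjusted p reached 0.555 for Acss2, 0.335 for Elovl7 and 0.363 for Npc2. Acot7, an acyl-CoA thioesterase gene, went the other way, at 157.3, 141.1 and 100.1 CPM in GFPhi, at 77.5, 62.7 and 73.5 CPM in GFPlow, against 76.2 and 122.8 CPM in WT (0.90 ± 0.25, adjusted p = 0.136, edgeR). Fdx1, a mitochondrial ferredoxin gene, was at 40.7, 43.8 and 43.2 CPM in GFPhi, at 27.2, 32.0 and 23.3 CPM in GFPlow, against 145 and 42.6 CPM in WT (0.63 ± 0.39, adjusted p = 0.686). Both lay above every GFPlow library in every GFPhi library. With only GFPhi and GFPlow in the fit they passed as higher in GFPhi, and over 19 alternative fits their adjusted p reached 0.44 and 0.993. Of 47 other listed genes tested in that 2-group fit, 3 were called higher (with Dgat2) and 8 lower, beside 12.3% of all genes. Apoe, an apolipoprotein known as a product of macrophages, was at 2.03, 3.24 and 21.2 CPM in GFPhi, at 25.4, 5.20 and 51.0 CPM in GFPlow, against 4.64 and 27.5 CPM in WT, beside the myeloid marker sums given above.

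**Figure D5:**
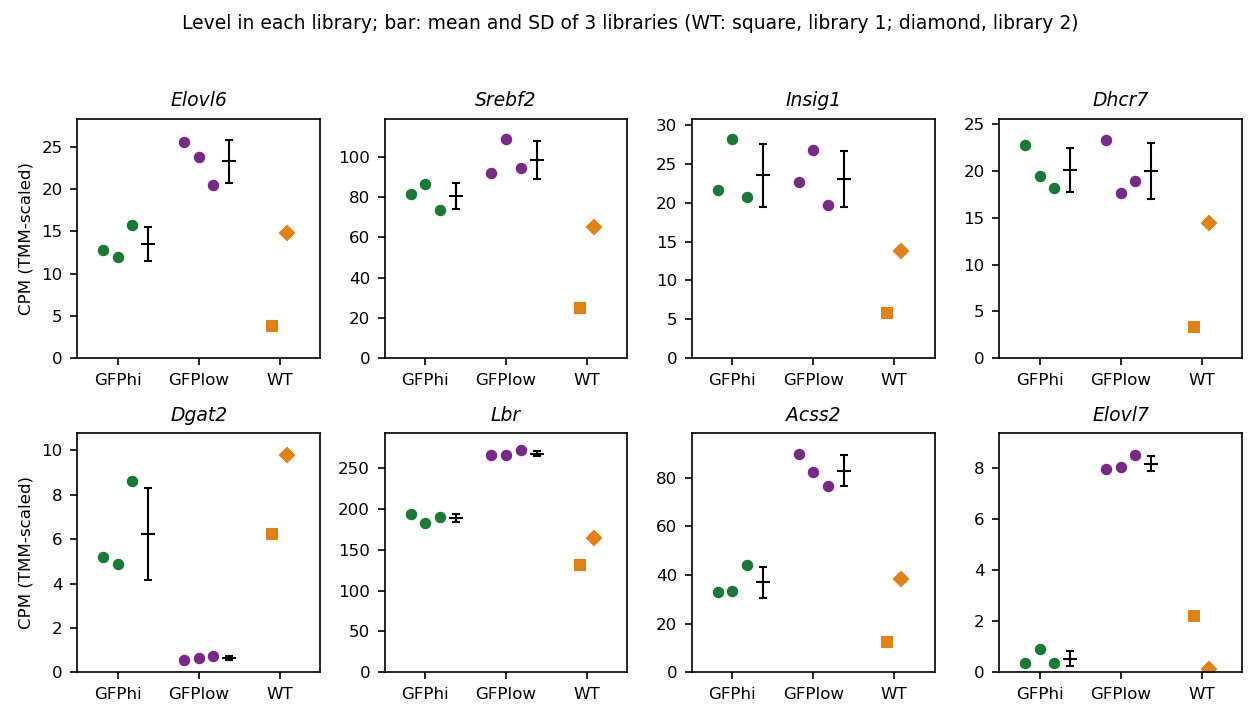
Level in CPM, scaled by TMM, of 4 members (upper row) and 4 other pathway genes (lower row) in each library of GFPhi, GFPlow and WT, with the mean and SD of 3 libraries at the right of GFPhi and GFPlow. Elovl6, Acss2 and Elovl7 are lower in every GFPhi than in every GFPlow library, Dgat2 is lower in every GFPlow library than in all others, and WT library 1 (square) is the lowest for Elovl6, Srebf2, Insig1, Dhcr7, Lbr and Acss2.

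Members whose windows held an E-box had a median change of 0.04 in GFPhi against GFPlow (n = 7), beside -0.13 for tested members with a window but no E-box (n = 20). With an Sp1 box the median was -0.12 (n = 22), beside 0.00 without one (n = 5), and with an NF-Y box it was -0.06 (n = 22), beside -0.22 (n = 5). For the E-box the medians with and without it were 0.30 and 0.19 in GFPhi against WT, and 0.24 and 0.42 in GFPlow against WT. In GFPhi against WT they were 0.23 and 0.53 for the NF-Y box and 0.19 and 0.53 for the Sp1 box. In GFPlow against WT they were 0.33 and 0.49 for each of these boxes. The 3 comparisons share libraries, so these values are not independent.

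Whether counting separated some members from near-identical copies or overlapping genes is not known, since annotation and strand use were not given. Shared words were sought on either strand. Of all 50-base words in the exons of Acat2, 39.1% also occurred in another gene, mainly Acat3, and the share was 30.4% for Acaca, 26.5% for Fdft1, which overlaps Ctsb, 26.2% for Fdps, 25.3% for Idi1, 20.8% for Tmem97 and 11.6% for Hmgcs1, which has an antisense gene. How far such sharing affects the values of these 7 genes is not known. For Elovl6 the share was 3.98%, for Insig1 2.17% and for Srebf2 0.396%.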

How the data were processed

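Values are raw counts of reads per Ensembl gene, in a single table that the authors deposited. Per the submitters' processing notes the tools were edgeR, R 4.0, HTSeq 0.11.2, SAMtools 1.9 and HISAT2 2.1.0, with build GRCm38. Which tool did what, the annotation, strand use and any filter: not given in the sources used here. Cells were sorted into lysis buffer and libraries made with SMART-Seq HT and Nextera XT kits, per the labels' protocols. Counts have no molecular identifiers.

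Of 54837 identifiers, 54808 were matched to GENCODE vM21. No row was blank, a total or a count of unassigned reads. Genes were kept by filterByExpr (18851) and scaled by TMM, and edgeR 4.0.16 (R 4.3.3) was fitted to all 8 libraries with 1 mean per group (robust quasi-likelihood test, two-sided, Benjamini-Hochberg over all genes, threshold 0.05). CPM and RPKM are TMM-scaled. Alternatives were median-of-ratios and upper-quartile scaling, no filter or 5 CPM in 2 libraries, no robust estimation, DESeq2 1.42.0, limma 3.58.1 voom with quality weights, a block on replicate number, fits to just the groups compared, each library left out and, added after seeing the data, DESeq2 without WT library 1. Replicates differed by more than sampling noise. Tables and plots came from pandas 2.3.3 and matplotlib 3.10.9 in Python 3.11.15.

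The members and lists were chosen with earlier results of these data known. Named with full statistics are members past the threshold and the 4 with the smallest p in each comparison, and other pathway genes past it. Others are described by role, or are marked as picked for their values.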

Additional observations from a re-analysis of the deposited data

How the results depend on the processing

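No gene named with full statistics changed direction, in the comparison it was named for, in 19 alternative fits. Other members did, such as Abca1 (-0.80 to 0.23), Idi1 (-0.48 to 0.07) and Cyp51 (-0.25 to 0.16) in GFPhi against GFPlow. The median of members in GFPhi against GFPlow stayed between -0.10 and 0.02, above 0 only without GFPlow library 1. The count of members called, 0 in each comparison, was in GFPhi against GFPlow 1 by limma voom, 1 with only the groups compared, 2 with the replicate block and only the groups compared (Elovl6, and Msmo1 at -0.35 with an adjusted p of 0.0326 in edgeR, beside 10.3% of all genes), 3 by DESeq2 without WT library 1 (Acat2, Elovl6, Srebf2, beside 15.7% of all genes), and 0 to 1 with 1 library left out. In GFPhi against WT it was 0 to 17 with 1 library left out. In GFPlow against WT it was 3 by DESeq2, 3 by DESeq2 without WT library 1 (Insig1, Srebf2, Tm7sf2, beside 11.8% of all genes), and 0 to 16 with 1 library left out. The median of members in GFPhi against WT was 0.0633 under upper-quartile scaling and 0.15 to 0.42 with 1 library left out. In GFPlow against WT it was 0.22 under upper-quartile scaling, 0.17 by DESeq2 without WT library 1, and 0.17 to 0.42 with 1 library left out. Calls of other pathway genes, 3 in all, were 5 with the filter of 5 CPM, 18 by DESeq2, 10 by voom, 10 with the replicate block and 11 without it when only the groups compared were fitted, 25 by DESeq2 without WT library 1, and 2 to 62 with 1 library left out. These counts sum the 3 comparisons. The highest counts of members in both comparisons with WT, and of other pathway genes, came without WT library 2. In that fit WT library 1 stood alone as WT. The shares of all genes called against WT in it, given with those comparisons above, were also the highest of all fits. The share of all genes called moved with the other settings too. In GFPhi against GFPlow it was 2.26% in the main fit, 7.29% by DESeq2 and 12.1% by voom. With only these groups fitted it was 10.3% with the replicate block and 12.3% without it. In GFPlow against WT the same fits gave 3.3%, 17.1%, 0.393%, 1.23% and 0.187%. Whether the listed genes moved more than all genes was not tested. The first 8 letters of the sterol element stood in 3 of 28 members (10.7%, beside 4.97% of all genes). In the replicate block fit with all 8 libraries 0 members passed in any comparison. Deviations of same-numbered GFPhi and GFPlow libraries correlated by 0.067, 0.066 and 0.149. Each correlated best with its own number, and both number 3 libraries held Xist and no Ddx3y. Correlations this weak over all genes cannot decide whether the numbers mark pairs. The titles use the same numbers in both gates, but the labels do not say whether a number marks 1 mouse. Depth was not varied. Scd1 and Fads2 had too few reads to be tested.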
